A study of Mus musculus with 6 samples.

Results

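Coenzyme A is built in cells from pantothenate (vitamin B5), cysteine and ATP, and 7 genes that encode or resemble the enzymes of this route are described here. The members are the rows of the deposited expression table with the gene names Pank1, Pank2, Pank3, Pank4, Ppcs, Ppcdc and Coasy, which gave 7 of 55703 genes. The rule names them by function, and they were chosen with earlier results of these data known. RNA-seq was performed on interscapular brown adipose tissue (iBAT), a heat-producing fat depot, of C57BL/6 mice aged 8 weeks. There were 3 Wtap-BKO libraries, from mice of the genotype WTAPflox/flox UCP1-iCre+/-, and 3 Wtap flox/flox libraries, from mice of the genotype WTAPflox/flox. Both groups carry the floxed Wtap alleles, with loxP sites around exon 4, and only Wtap-BKO mice carry iCre. The iCre is expressed from the Ucp1 gene, so deletion is limited to cells that use this gene, and the other cells of the fat pad keep Wtap. A group with iCre and no floxed allele was not sequenced here.

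The first and rate-limiting step of the route, phosphorylation of pantothenate, is carried out by pantothenate kinases, of which Pank1, Pank2 and Pank3 encode the active forms. PPCS then adds cysteine, PPCDC removes a carboxyl group, and the bifunctional COASY adds the adenosine part and its last phosphate. Coenzyme A and its thioesters inhibit the kinases, most strongly the PANK3 and PANK2 forms. The cofactor carries acyl groups in fatty acid oxidation, fatty acid synthesis, the TCA cycle and amino acid breakdown, all of which are active in brown fat. WTAP belongs to the methyltransferase complex that places N6-methyladenosine (m6A) on mRNA.

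The kinase genes Pank1, Pank2 and Pank3 also share a genomic feature that the choice of genes did not use. In the longest coding transcript of each in the GENCODE annotation of the same assembly, which has 7 exons in all 3 genes with an exon 4 of 177 bp, a microRNA gene lies on the same strand within intron 5. Mir107 lies in Pank1 (chromosome 19, 34820687 to 34820773), Mir103-2 in Pank2 (chromosome 2, 131288052 to 131288137) and Mir103-1 in Pank3 (chromosome 11, 35782396 to 35782481). The mature sequences from RefSeq (GRCm38.p6) are shown because Pank1 and Pank2, which moved in opposite directions, host near-identical products. Capitals mark the seed, bases 2 to 8.
mmu-miR-107-3p: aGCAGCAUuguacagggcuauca
mmu-miR-103-3p: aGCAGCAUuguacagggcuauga
Both have the seed GCAGCAU. Counted from the 5′ end of mmu-miR-103-3p, the only difference between the pair is G22C. Mir103-1 and Mir103-2 give the same 3p sequence. The libraries hold too few reads on these hairpins to describe them, with 0 to 6 reads per library for Mir103-2, 0 or 1 for Mir107 and 0 for Mir103-1, and mature microRNAs were not measured.

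Libraries had 15979694 to 19005123 reads assigned to genes, and the members had 242 to 13122 reads in each library. Values are FPKM, fragments scaled by gene length and library depth, as the authors scaled them between libraries. A gene was called higher or lower when limma's adjusted p was under 0.05. The targeted gene, Wtap, was at 11.8, 12.3 and 12.7 FPKM in Wtap-BKO and 8.00, 8.63 and 8.16 FPKM in Wtap flox/flox. Wtap was called higher in Wtap-BKO, with a log2 change of 0.565 (limma adjusted p = 0.0160). Exon 4 of Wtap has 59 bp, 0.944% of the gene length used for FPKM, so the loss of its reads alone would hardly move this value. The value therefore checks neither the deletion nor the labels, and the cause of the higher level was not tested. Markers of brown adipocytes were present in every library, with a summed level of 3534 to 5075 FPKM in Wtap-BKO and 6847 to 9134 FPKM in Wtap flox/flox over 7 genes. Of these 7, Ucp1 and Cox7a1 were called lower and none was called higher. Ucp1 averaged 358 FPKM in Wtap-BKO and 1769 FPKM in Wtap flox/flox. Only Wtap-BKO mice carry the iCre insertion in this gene, and its part in the Ucp1 level was not tested. The list did not move one way. Elovl3, a fatty acid elongase, averaged 9.97 FPKM in Wtap-BKO and 0.944 FPKM in Wtap flox/flox, a log2 change of 3.27 that was not called (adjusted p = 0.0516), while the other 6 had negative changes. The summed level of 6 general adipocyte genes was 4159 to 4681 FPKM in Wtap-BKO and 3721 to 3960 FPKM in Wtap flox/flox, with 1 called higher. Macrophage markers (5 genes, 2 of 4 tested called higher) summed to 26.7 to 36.7 FPKM in Wtap-BKO and 18.2 to 23.9 FPKM in Wtap flox/flox. Fibroblast markers (4 genes, 1 called higher) summed to 121.8 to 187.5 FPKM in Wtap-BKO and 82.5 to 99.8 FPKM in Wtap flox/flox. Endothelial markers (4 genes, 0 called by limma and 0 with an unadjusted p under 0.05) summed to 115.9 to 176.7 FPKM in Wtap-BKO and 149.8 to 198.6 FPKM in Wtap flox/flox. In whole tissue, fewer cells of a type and less RNA per cell cannot be told apart. Skeletal muscle markers (10 genes) summed to 1390 FPKM in Wtap-BKO replicate 3 and 820 FPKM in Wtap flox/flox replicate 2, against 2.18 to 16.97 FPKM in the other libraries, and values of the 7 members without both libraries are given with the results. Reads of mitochondrial genes made up 10.998% to 12.2% of the total in Wtap-BKO and 18.3% to 22.4% in Wtap flox/flox. A setting with scaling factors taken without mitochondrial genes kept limma's calls of Pank2, Ppcs and Coasy (higher) and Pank1 (lower). Its log2 changes were 0.75, 0.76, 1.43 and -0.71 in that order. Apart from this setting and leaving out the libraries with muscle transcripts, the part of these shifts in the results was not tested.

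Of the 7 synthesis genes, Pank2, Ppcs and Coasy were called higher in Wtap-BKO iBAT, Pank1 was called lower, and Pank3, Pank4 and Ppcdc were not called. All 7 passed the filter on low values, so none was left out of the test. Enzyme protein, enzyme activity and coenzyme A itself were not measured in these libraries. Over all 13507 tested genes, 9.98% were called, 6.1% higher and 3.88% lower. These 824 and 524 calls became 1114 and 310 with scaling by library size alone and 712 and 705 with upper-quartile scaling. The median change of the members was 0.71 on the log2 scale, against -0.00380 for all tested genes, and the median size of the change, whatever its sign, was 0.71 against 0.26. In 5 of the 7 genes the 3 Wtap-BKO values did not overlap the 3 Wtap flox/flox values, a pattern shown by 35% of all tested genes.

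**Figure D1:**
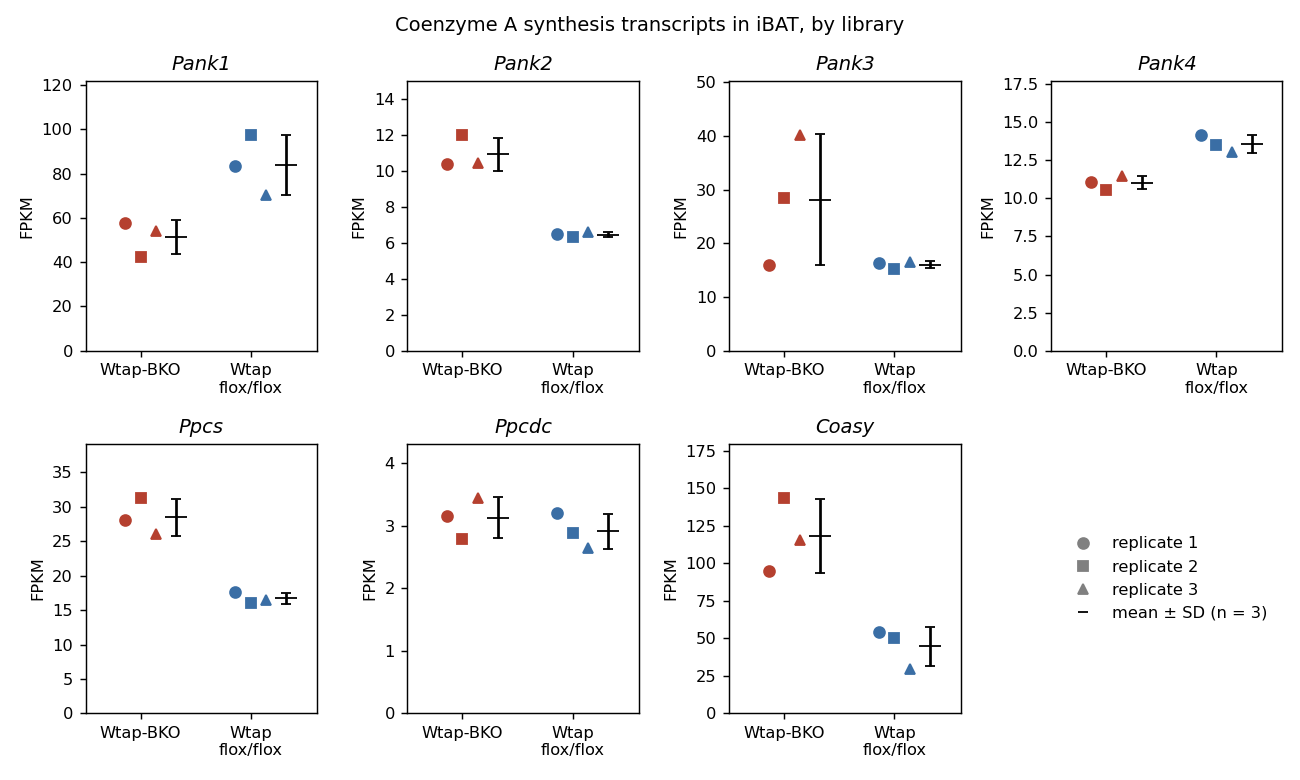
FPKM (vertical axis, linear, from 0) of each of the 7 coenzyme A synthesis genes in the 3 Wtap-BKO libraries (red, left) and the 3 Wtap flox/flox libraries (blue, right), with marker shapes for replicates 1 to 3 and the mean ± SD (n = 3) in black. Pank2, Ppcs and Coasy lie higher in every Wtap-BKO library, Pank1 and Pank4 lie lower, Pank3 is spread from 15.9 to 40.2 FPKM in Wtap-BKO, and the values of Ppcdc overlap.

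Pank1 (ENSMUSG00000033610, minus strand of chromosome 19, 34806940 to 34879455) encodes the kinase that is abundant in liver. It had 57.5, 42.5 and 53.9 FPKM in Wtap-BKO, against 83.6, 97.5 and 70.4 FPKM in Wtap flox/flox. Every Wtap-BKO library was below every Wtap flox/flox library. The means were 51.3 ± 7.81 FPKM in Wtap-BKO and 83.8 ± 13.5 FPKM in Wtap flox/flox (SD, n = 3 each). The log2 change was -0.71 ± 0.16 (SE), and limma gave an adjusted p of 0.0415. This call was the least stable of the 4. It was lost without any single library other than Wtap-BKO replicate 1, at an adjusted p of 0.0536 to 0.129, and with scaling by library size alone (0.0948). Pank1 in mouse liver is a known target of the nuclear receptor PPAR-alpha. Its gene Ppara was at 49.3, 40.7 and 48.6 FPKM in Wtap-BKO and 91.9, 96.4 and 80.2 FPKM in Wtap flox/flox, with no overlap. Promoters of the 6 members other than Coasy, which had no promoter entry, were searched for DR1, an element bound by PPAR receptors. It was found in 0 of their 9 promoters, and in 13 of 32851 promoters of all genes. An element this rare is missing from most promoters, so the search cannot tell whether PPAR-alpha acts on Pank1. Of the other motifs searched, the ERR element was in 0 of the 9 promoters and in 139 of 32851 promoters of all genes, so it is also rare. The CCAAT motif was in 5, against 37.4% of all promoters, and Pank1 was among the genes with it. The GC box was in 5, against 35.7% of all promoters, but not in Pank1. The part of Ppara in the Pank1 values was not tested.

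Pank2 (ENSMUSG00000037514, plus strand of chromosome 2, 131262495 to 131299188) encodes the form whose human counterpart acts in mitochondria and is mutated in a neurodegeneration with brain iron accumulation. It had 10.4, 12.003 and 10.4 FPKM in Wtap-BKO, against 6.49, 6.30 and 6.60 FPKM in Wtap flox/flox. The groups did not overlap, and the Wtap flox/flox values lay within 0.303 FPKM of each other. The means were 10.9 ± 0.919 FPKM in Wtap-BKO and 6.47 ± 0.153 FPKM in Wtap flox/flox, a 1.69-fold higher level in Wtap-BKO. The log2 change was 0.75 ± 0.10, for which limma gave an adjusted p of 0.0102. The call was kept with each of the 6 libraries left out in turn. The 3′ end of Pank2 overlaps the 3′ end of Rnf24 on the opposite strand by 1125 bp. The sources used here do not say whether reads were counted by strand, so reads in this stretch may belong to either gene. Rnf24 averaged 2.95 FPKM in Wtap-BKO and 3.73 FPKM in Wtap flox/flox.

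Pank3 (ENSMUSG00000018846, plus strand of chromosome 11, 35769484 to 35791285) encodes the most broadly expressed active form. It had 15.9, 28.4 and 40.2 FPKM in Wtap-BKO, against 16.4, 15.2 and 16.5 FPKM in Wtap flox/flox. Wtap-BKO replicate 1 was within the range of the Wtap flox/flox libraries, and the other Wtap-BKO libraries were above it. The means were 28.1 ± 12.1 FPKM in Wtap-BKO and 16.0 ± 0.688 FPKM in Wtap flox/flox. The change was 0.71 on the log2 scale with a 95% confidence interval of -0.02 to 1.44, and it was not called (adjusted p = 0.180). Without Wtap-BKO replicate 1 the change was 1.07 and called (adjusted p = 0.0210). Without Wtap-BKO replicate 3, the library with muscle transcripts and the highest Pank3, it was 0.40, and without both libraries with muscle transcripts it was 0.37. In Wtap flox/flox replicate 2, which also held muscle transcripts, Pank3 was at 15.2 FPKM, against 16.4 and 16.5 FPKM in the rest of its group. The part of muscle tissue in the Pank3 values was not tested.

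Pank4 (ENSMUSG00000029056, plus strand of chromosome 4, 154964123 to 154980938) resembles the kinases but lacks pantothenate kinase activity in mammals, and its second domain is a phosphatase. In the annotation it has 20 exons and a coding sequence of 820 codons, against 548, 443 and 370 codons for Pank1, Pank2 and Pank3. It had 11.1, 10.6 and 11.5 FPKM in Wtap-BKO, against 14.2, 13.5 and 13.043 FPKM in Wtap flox/flox. The groups did not overlap, but the change of -0.30 ± 0.09 on the log2 scale was not called (adjusted p = 0.0863), and 0 of 17 alternative settings called it.

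The transcripts of the active kinases were set against each other within each library, a comparison that does not depend on scaling between libraries. Pank1 made up 68.6%, 51.3% and 51.6% of the summed FPKM of Pank1, Pank2 and Pank3 in Wtap-BKO, against 78.5%, 81.9% and 75.3% in Wtap flox/flox. Its share was lower in every Wtap-BKO library, by 21.4 percentage points in the mean (57.2% ± 9.92 in Wtap-BKO and 78.6% ± 3.29 in Wtap flox/flox). Pank2 took 12.4%, 14.5% and 9.98% in Wtap-BKO, against 6.10%, 5.29% and 7.06% in Wtap flox/flox. Pank3 took 19.0%, 34.2% and 38.4% in Wtap-BKO, against 15.4%, 12.8% and 17.6% in Wtap flox/flox. For each of the 3 genes the groups did not overlap. The shares are parts of 1 sum, so a lower Pank1 share raises the others, and the 3 are not separate results. In Wtap-BKO replicate 1 the Pank3 level itself, 15.9 FPKM, was within the Wtap flox/flox range of 15.2 to 16.5 FPKM. The exact two-sided permutation p was 0.1, also after adjustment over the 3 genes, which is the smallest p that 3 against 3 libraries allow. Their summed level was 83.7, 82.9 and 104.5 FPKM in Wtap-BKO and 106.5, 119.0 and 93.5 FPKM in Wtap flox/flox, groups that overlapped (exact two-sided permutation p = 0.2). Without both libraries with muscle transcripts, the differences in mean share were -16.96 percentage points for Pank1, 6.87 for Pank2 and 10.1 for Pank3, and that in the summed level was -16.67 FPKM. With 2 libraries in each group the exact permutation test cannot go below 0.333, the p it gave for each of these.

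**Figure D2:**
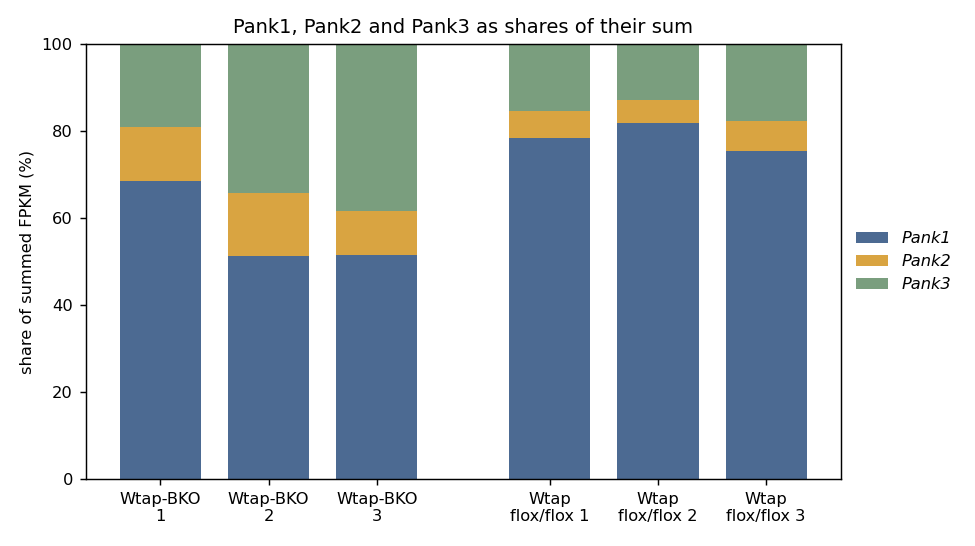
Share of Pank1 (blue), Pank2 (yellow) and Pank3 (green) in their summed FPKM (vertical axis, percent, 0 to 100), with 1 stacked bar for each Wtap-BKO library (left) and each Wtap flox/flox library (right). Pank1 takes 51.3% to 68.6% in Wtap-BKO and 75.3% to 81.9% in Wtap flox/flox, and the Pank3 part is largest in Wtap-BKO replicates 2 and 3.

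Ppcs (ENSMUSG00000028636, minus strand of chromosome 4, 119418530 to 119422420) encodes phosphopantothenoylcysteine synthetase, the enzyme of the second step. It had 28.1, 31.3 and 26.0 FPKM in Wtap-BKO, against 17.6, 16.0 and 16.4 FPKM in Wtap flox/flox. The groups did not overlap, and the spread within either group was smaller than the gap between them. The means were 28.5 ± 2.68 FPKM in Wtap-BKO and 16.7 ± 0.839 FPKM in Wtap flox/flox, a 1.71-fold higher level in Wtap-BKO. The log2 change was 0.76 ± 0.10 (adjusted p = 0.0102). The call was lost without Wtap flox/flox replicate 2 (adjusted p = 0.0511) and kept without any other single library.

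Ppcdc (ENSMUSG00000063849, minus strand of chromosome 9, 57385095 to 57440124) encodes the decarboxylase of the third step and had the lowest level of the 7 genes in every library. It was at 3.15, 2.79 and 3.45 FPKM in Wtap-BKO and at 3.20, 2.89 and 2.64 FPKM in Wtap flox/flox. The groups overlapped, and the change was 0.10 on the log2 scale with a 95% confidence interval of -0.22 to 0.43 (adjusted p = 0.670).

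Coasy (ENSMUSG00000001755, plus strand of chromosome 11, 101082565 to 101086619) encodes coenzyme A synthase, the bifunctional enzyme of the last steps, which is found at mitochondria. It had the largest change of the 7 genes. There were 94.7, 143.7 and 115.5 FPKM in Wtap-BKO, against 54.1, 50.2 and 29.6 FPKM in Wtap flox/flox. The lowest Wtap-BKO library was above the highest Wtap flox/flox library. The means were 118.0 ± 24.6 FPKM in Wtap-BKO and 44.6 ± 13.2 FPKM in Wtap flox/flox, a 2.64-fold higher level in Wtap-BKO. The log2 change was 1.43 ± 0.26 (adjusted p = 0.0215) and stayed between 1.155 and 1.59 with 1 library left out. The call was lost without Wtap-BKO replicate 2 (adjusted p = 0.0535) or 3 (0.0657) or Wtap flox/flox replicate 1 (0.0505) or 2 (0.0604).

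FPKM is divided by a gene length, so levels were also ordered between the genes, and the order depends on that length. It was 5803 bp for Ppcdc, 3487 bp for Pank4 and 7376 bp for Pank3. Their longest coding transcripts have 2744, 2706 and 7376 bp. The order with transcript lengths was not tested, and neighbours with close values may change places. In Wtap-BKO, Coasy came first, followed by Pank1, Ppcs and Pank3, Pank4 and Pank2, and Ppcdc. In Wtap flox/flox, Pank1 came first, followed by Coasy, Ppcs and Pank3, Pank4, Pank2 and Ppcdc. Ppcs and Pank3 overlapped in both groups, and Pank4 and Pank2 overlapped in Wtap-BKO only, while the other neighbours did not overlap. The FPKM of Coasy over that of Pank1 was 1.65, 3.38 and 2.14 in Wtap-BKO and 0.648, 0.516 and 0.420 in Wtap flox/flox. Coasy was above Pank1 in every Wtap-BKO library and below it in every Wtap flox/flox library. This ratio was chosen after its values were seen and was not tested.

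The other genes that handle coenzyme A and pantothenate were taken as 4 groups. Of these 18 genes, Nudt8, Enpp1 and Aldh1l2 had values below the filter (means of 0.257, 0.0924 and 0.196 FPKM in Wtap-BKO and 0.352, 0.156 and 0.0984 FPKM in Wtap flox/flox). Of the 15 tested, none was called in either direction by limma, against 9.98% of all tested genes. Of the 15, 5 had an unadjusted limma p under 0.05, a share close to that of all tested genes (3897 of 13507). With voom on recovered reads 1 was called, Nudt7. Among genes of uptake and transport, Slc25a42, the mitochondrial carrier that brings coenzyme A into the matrix, had 62.5, 24.0 and 57.8 FPKM in Wtap-BKO, against 78.5, 94.1 and 109.8 FPKM in Wtap flox/flox. These groups did not overlap, and the change of -1.07 ± 0.36 on the log2 scale was not called (adjusted p = 0.105). Slc5a6, the sodium-dependent vitamin transporter that takes up pantothenate, was at 12.1 ± 2.88 FPKM in Wtap-BKO and 10.7 ± 1.33 FPKM in Wtap flox/flox. Slc25a16, a related mitochondrial carrier, was at 10.5 ± 1.52 FPKM in Wtap-BKO and 13.6 ± 2.31 FPKM in Wtap flox/flox.

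Genes of breakdown and recycling had the highest median change among the groups of related genes with more than 1 gene, 0.50 on the log2 scale over 5 tested genes. Nudt7, a peroxisomal enzyme that cleaves coenzyme A, had 25.3, 52.3 and 32.8 FPKM in Wtap-BKO, against 19.2, 18.8 and 14.5 FPKM in Wtap flox/flox. These groups did not overlap, and the adjusted p was 0.0571 for a change of 1.01 ± 0.26. Nudt19, a second peroxisomal enzyme of this kind, was at 21.1 ± 2.89 FPKM in Wtap-BKO and 14.9 ± 1.51 FPKM in Wtap flox/flox (adjusted p = 0.0621). With scaling by library size alone Nudt7, Nudt19 and Mcat were called higher. Vnn3, of the vanin family of pantetheinases that free pantothenate, was at 1.65, 2.43 and 4.33 FPKM in Wtap-BKO and 1.10, 0.915 and 1.33 FPKM in Wtap flox/flox (adjusted p = 0.0752). Its relative Vnn1 was at 4.46 ± 1.36 FPKM in Wtap-BKO and 3.39 ± 0.721 FPKM in Wtap flox/flox. Enpp3, an ectoenzyme that hydrolyses nucleotides, was at 0.700 ± 0.0879 FPKM in Wtap-BKO and 0.848 ± 0.0517 FPKM in Wtap flox/flox.

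Genes of the carriers that receive the phosphopantetheine arm of coenzyme A had a median change of 0.09 on the log2 scale over 6 tested genes. Aasdhppt, the transferase that attaches the arm, was at 10.5 ± 1.37 FPKM in Wtap-BKO and 10.2 ± 0.342 FPKM in Wtap flox/flox. Fasn, the cytosolic fatty acid synthase, was the most variable of these genes, with 388.4, 3320 and 1371 FPKM in Wtap-BKO and 942.2, 365.9 and 207.1 FPKM in Wtap flox/flox. Its groups overlapped (adjusted p = 0.274). Ndufab1, the mitochondrial acyl carrier protein, was at 41.0 ± 5.23 FPKM in Wtap-BKO and 47.2 ± 5.58 FPKM in Wtap flox/flox. Mcat, which loads malonyl groups onto that carrier, was at 23.1 ± 1.73 FPKM in Wtap-BKO and 17.6 ± 1.43 FPKM in Wtap flox/flox (adjusted p = 0.0643). Aldh1l1 and Aasdh had changes of 0.09 each, and Dcakd, a gene with a dephospho-coenzyme A kinase domain, had a change of 0.17 on the log2 scale. None of these 3 was called.

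**Figure D3:**
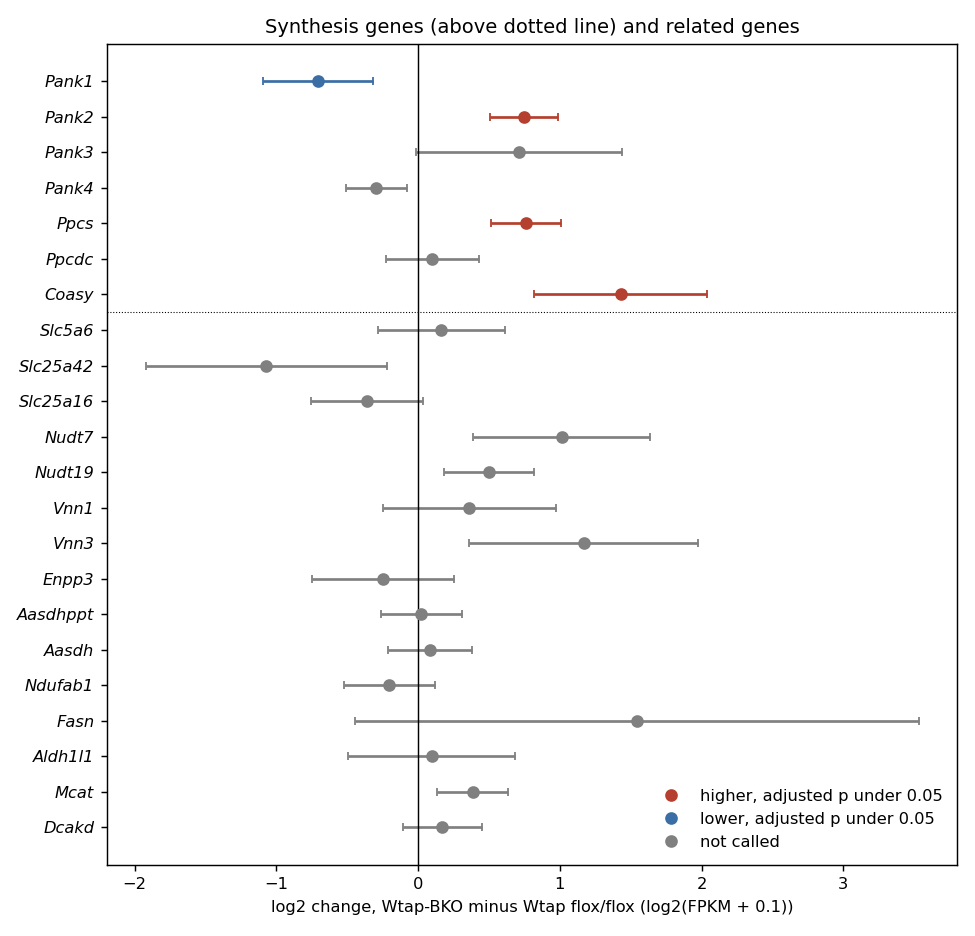
Log2 change of Wtap-BKO over Wtap flox/flox (horizontal axis, on log2(FPKM + 0.1), with 95% confidence intervals from limma, n = 3 libraries each) for the 7 synthesis genes above the dotted line and the 15 tested related genes below it. Red and blue points are called higher and lower and grey points are not called, so that colour appears only for Pank1 (-0.71), Pank2 (0.75), Ppcs (0.76) and Coasy (1.43).

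For each called member, the genes most like it were taken by Pearson correlation of log2(FPKM + 0.1) over the 6 libraries among 6152 protein-coding genes whose mean reached 5 FPKM. The values are a description, since all 6 points share the difference between the groups. Mrps2 and Snapc2 followed Pank2 (r of 0.998 to 0.999), Nxt1, Pef1 and Rab9 followed Ppcs (0.9955 to 0.999), and Abhd17b, Lsm10 and Mrpl17 followed Coasy (0.9966 to 0.998). These 8 genes were called higher, by 0.54 to 1.21 on the log2 scale. Phlpp1, Smim11 and Stx4a followed Pank1 (0.9921 to 0.9981). Their changes of -0.30 to -0.27 were smaller than that of Pank1 and were not called.

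Because WTAP acts in the m6A writer, the core of the m6A motif, GGACT in DNA letters, was looked for on the RNA strand in the 200 bases around the last coding base before the stop codon of the longest coding transcript. The motif was present in 24.8% of 10909 tested protein-coding genes and in Pank1, Pank2 and Pank3, but not in this window of Pank4, Ppcs, Ppcdc or Coasy. Counted from the first base after the last coding base, it began 28 bases downstream in Pank1, 13 bases downstream in Pank2 and 18 bases upstream in Pank3. The sites are shown because the active kinases share them, with the motif in capitals.
Pank1: cggacagaGGACTgacgggcc
Pank2: taccgagaGGACTtcctgaaa
Pank3: cgcttcttGGACTgccgaatt
Over the whole transcript the motif occurred 0.542 to 1.39 times per kilobase in the 7 genes, against a median of 1.06. The m6A mark was not measured in these libraries, and a match is not a modified site.

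The directions of the 7 genes were the same under all 17 alternatives of scaling, filter, test and libraries, while the calls were not. Pank2 was called in 15 of 17, Ppcs in 14, Coasy in 10 and Pank1 in 8. Without both libraries with muscle transcripts, the changes were 0.76 for Pank2, 0.80 for Ppcs, 1.54 for Coasy, -0.63 for Pank1, 0.37 for Pank3, -0.33 for Pank4 and 0.03 for Ppcdc. With 2 libraries left in each group limma then called 0 of 13483 genes, and 2253 genes, Pank1, Pank2, Ppcs and Coasy among them, had an unadjusted p under 0.05.

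**Figure D4:**
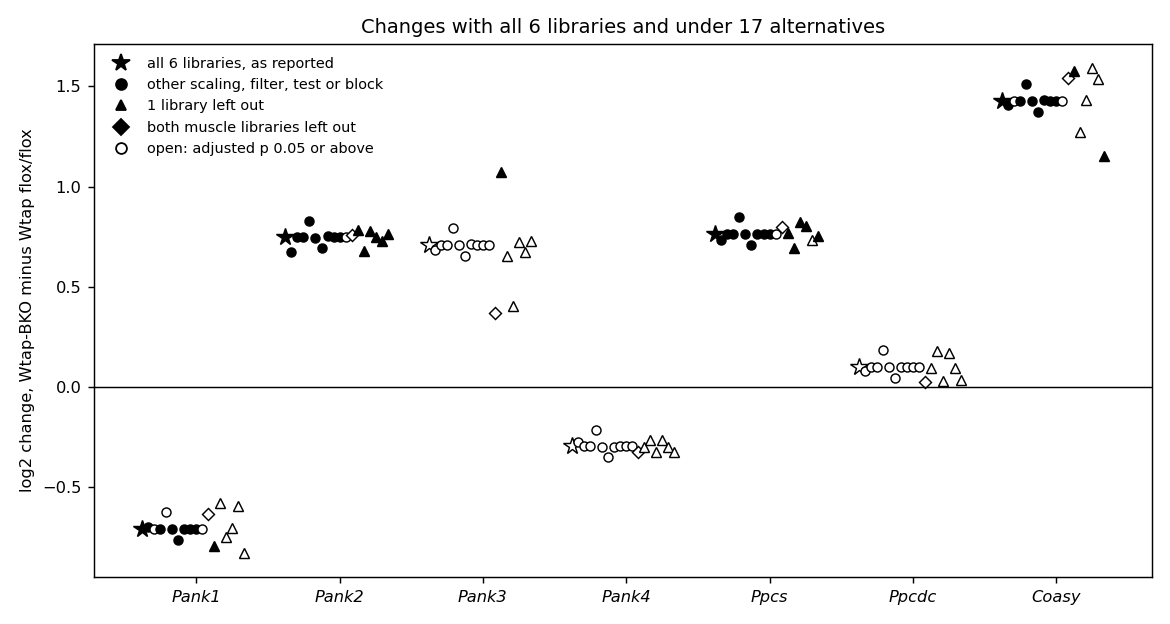
Log2 change of Wtap-BKO over Wtap flox/flox (vertical axis) of each of the 7 genes with all 6 libraries (star) and under 17 alternatives (circles for scaling, filter, test or replicate block, triangles for 1 library left out, diamonds for both libraries with muscle transcripts left out), filled where the adjusted p was under 0.05. No gene crosses 0, and the values of Pank3 range from 0.37 to 1.07.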

How the data were processed

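Total RNA of iBAT was sequenced in 3 Wtap-BKO and 3 Wtap flox/flox libraries. Per the labels and the study's methods, the authors used HISAT2 2.0.5 for alignment to GRCm38.p6, featureCounts 1.5.0-p3 for gene counts and DESeq2 1.16.1 for their comparison. The deposited values are FPKM with gene lengths. Multiplied by gene length, 100% of nonzero values came out as whole reads within 0.01 after division by a factor for each library. The deposited scale equalled median-of-ratios size factors, so FPKM was used as scaled.

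FPKM are not counts, so limma 3.58.1 (R 4.3.3) was fitted to log2(FPKM + 0.1), which understates changes of low genes, with group as the only term, a variance trend and Benjamini-Hochberg adjustment, for 13507 genes averaging 0.5 FPKM and 10 reads or more. The test was checked on simulated data. Named genes were the 7 members, 18 related genes, Wtap, Ppara and Ucp1, and the 3 most correlated genes of each called member (predicted genes left out), of which 1 is not reported here. Members and lists were chosen with earlier results of these data known. Replicates differed by more than sampling noise (lowest chi-square over its degrees of freedom, 22.6). The p-values rest on the spread between these libraries, which the study describes as biological replicates. Alternatives covered pseudocount, filter, scaling, voom, a robust variance, protein-coding genes, a replicate block and libraries left out. The m6A motif was added after the data were seen.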

Additional observations from a re-analysis of the deposited data

How the results depend on the processing

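Of the 119 member changes under the 17 alternatives, 0 reversed. Pank1 lost its call with no filter (-0.71, adjusted p = 0.0873), library size alone (-0.62, 0.0948), the replicate block (-0.71, 0.117) and without both libraries with muscle transcripts (-0.63, 0.246). Coasy lost it with no filter (1.43, 0.0502), the replicate block (1.43, 0.0590) and without both libraries (1.54, 0.150). Pank2 (0.75 and 0.76) and Ppcs (0.76 and 0.80) lost it under the block and without both libraries, at 0.0548 and 0.136 for Pank2 and 0.0523 and 0.128 for Ppcs. With 1 library left out the changes were -0.83 to -0.58 for Pank1, 0.68 to 0.78 for Pank2, 0.40 to 1.07 for Pank3, 0.69 to 0.83 for Ppcs and 1.155 to 1.59 for Coasy. Called members then numbered 1 to 4 higher, against 3 with all libraries, and 0 to 1 lower, against 1. The lower call was absent (0) with no filter, library size alone, the block and without both libraries, and the higher calls (0) under the last of these and the block. Related genes called higher numbered 3 with library size alone, 1 with voom and 0 to 2 with 1 library left out, against 0.

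Over all genes, calls higher and lower were 442 and 245 with no filter and 211 and 97 with the replicate block. With 1 library left out they were 219 to 849 and 88 to 428. Same-numbered libraries did not deviate together (r of -0.05, -0.40 and -0.27), and 0 of 6 libraries correlated best with their own number. The labels do not say what the number stands for, and these values cannot settle whether same-numbered libraries shared a batch. The block also takes degrees of freedom. The cause of the lost calls was not tested. Intervals rest on 3 libraries in each group. Nudt8, Enpp1 and Aldh1l2, with 1 to 47 reads in a library, were below the minimum level and were not tested.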
